A study of Mus musculus with 32 samples.

Results

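Polysome profiling asks, for each mRNA, how much of it carries many ribosomes and how much carries few or none. Here the ratio between these pools was compared between 4T1 spheroids with Dhps silenced (ASPshDHPS) and spheroids with a non-targeting scramble shRNA (ASPshSCR). 4T1 is a tumour cell line from a mouse mammary carcinoma. Both lines carried a lentiviral pLKO shRNA, were selected with puromycin as polyclonal populations, and were kept for 5 days in lung-like medium, a culture medium composed after the lung's interstitial fluid, with 700 µM aspartate. Each line gave 4 independent spheroid pellets, and each pellet gave a polysomal library (mRNA with more than 3 ribosomes by the study's definition) and a sub-polysomal library. The comparison therefore rests on 16 of the 32 libraries of the series. Its other conditions were ASPshGRIN2D (an shRNA against Grin2d with aspartate) and NoASPshSCR (scramble without added aspartate). They shared the normalization and the estimate of the spread and served as second points of reference. The Dhps knockdown is 1 line made with shRNA, so an effect of that line and of Dhps itself cannot be told apart.

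Dhps encodes deoxyhypusine synthase, which starts the conversion of a lysine of eIF5A into hypusine. Deoxyhypusine hydroxylase, encoded by Dohh, completes it. Hypusinated eIF5A binds ribosomes and helps them through peptide bonds that form slowly, runs of prolines being the best known, and it also takes part in translation termination. A polysome gradient does not see this step directly. A slow step after initiation can leave more ribosomes on an mRNA, and slower initiation leaves fewer, so the polysomal to sub-polysomal ratio is a measure of ribosome loading.

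The value used throughout is the log2 ratio of polysomal to sub-polysomal normalised counts, 1 per gene and pellet. A negative difference means that the ratio was lower in ASPshDHPS. Library totals were between 16391556 and 25639437 counts in the 16 libraries. Over 17757 genes, the pellet ratios were centred by the normalization, so they say which mRNAs shifted relative to the others and not whether ribosome loading moved as a whole. A ratio of 0 was the median over all 17757 genes in each pellet, and the median mRNA below means this value. It includes genes with few reads. Genes with a mean count of 50 or more were also cut into 10 bins by GC content. In bin 5 the pellet medians were 0.10 to 0.45 in ASPshSCR and 0.22 to 0.32 in ASPshDHPS. In bin 10, the highest, they were −0.60 to −0.22 and −0.43 to 0.22. The sign of a ratio does not say which fraction held more of an mRNA. The highest counts among the cell type markers examined were those of epithelial genes. Of 10 mammary epithelial markers, 9 were in the table, each with at least 10 counts in all 16 libraries, led by Krt8 with a mean of 26722 counts. Of 8 leukocyte markers 3 were in the table (Cd68 with a mean of 236 counts, Ptprc with 4.88 and Csf1r with 0.562), and of 6 endothelial markers only Pecam1, with 4.12. Of 8 fibroblast markers, Thy1 (2717), Pdgfra (289) and Col1a1 (7.56) were in it. Thy1 thus lay above the epithelial markers Krt19 (2233) and Krt14 (1399).

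One library stood apart. On a scale on which the sub-polysomal libraries of ASPshGRIN2D and NoASPshSCR average 0 and their polysomal libraries 1, the polysomal library of ASPshSCR replicate 1 lay at 0.369, and the other 7 polysomal libraries of the comparison lay between 0.783 and 1.08. The ferritin subunits Fth1 and Ftl1 took 7.50% of its counts, against 0.190% to 0.249% in the other ASPshSCR polysomal libraries and 0.219% to 0.260% in those of ASPshDHPS. Mitochondrially encoded transcripts took 4.72% of it, against 0.692% to 1.00% in the other 3. The sub-polysomal library of ASPshSCR replicate 2 also held more ferritin (2.27%) than the others of its group (0.908% to 1.08%). The main counts below are therefore also given without ASPshSCR replicate 1, and the plot of list medians shows each list without it.

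Silencing was seen in both fractions. Dhps was at 16.3, 49.8, 38.7 and 33.4 CPM (counts scaled to the library total) in the polysomal libraries of ASPshSCR replicates 1 to 4 and at 9.55, 14.6, 11.2 and 8.39 CPM in those of ASPshDHPS. In the sub-polysomal libraries it was at 39.4, 28.2, 40.8 and 40.2 CPM against 9.37, 10.6, 10.4 and 8.66 CPM. No knockdown library reached the lowest scramble library of its fraction. The level fell by 1.64 on the log2 scale (SE 0.23, n = 4 pellets per condition) in the polysomal fraction and by 2.01 (SE 0.16) in the sub-polysomal fraction, with edgeR adjusted p-values of 0.0167 and 1.11e-08. The ratio of the Dhps mRNA that was left did not pass the test (0.44 ± 0.29, adjusted p = 0.512, edgeR, and 0.21 without ASPshSCR replicate 1).

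In the ratio itself, 37 genes passed the threshold (edgeR quasi-likelihood F test, Benjamini-Hochberg adjusted p under 0.05 over all genes), all of them lower in ASPshDHPS. They are 0.208% of the genes tested. No gene was higher past the threshold (0%). At an unadjusted p under 0.05, 1541 genes were lower (8.68%) and 875 were higher (4.93%). The log2 differences of the 37 genes ran from −1.94 to −1.11 with a median of −1.29 (mean SE 0.27). In all 37, the 4 ASPshDHPS pellets lay below the 4 ASPshSCR pellets. Over all genes this held for 834 (4.7%), and the opposite order held for 384 (2.16%). Without ASPshSCR replicate 1 these counts were 1439 (8.1%) and 737 (4.15%). The adjusted p-values of the 37 genes lay close to the threshold, between 0.0376 and 0.0490. In simulated data this fit could make more false calls than the threshold allows, so these values may be too small.

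The count depended on the pellets and on the test. Without ASPshSCR replicate 1, 27 genes were lower (0.152%) and 1 was higher (0.00563%), and 18 of the 37 were among the 27. Leaving out any other pellet gave between 0 and 83 lower genes. In edgeR, no gene passed with only the 16 libraries of the 2 conditions, with DESeq2 size factors, or without a pellet term. The Wald test of DESeq2, which the study's own model uses, called 436 lower (4.01% of the 10872 genes to which it gave an adjusted p) and 228 higher genes (2.1%), among them all 37.

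The 37 genes share a build. They are long and rich in A and T. Their longest complete coding transcripts in the GENCODE M21 annotation (GRCm38) had a median GC content of 41.1%, against 50.7% over the 13348 genes with such a transcript, and a median length of 6784 bases, against 2894. All 37 lay below the median GC content of all genes, and 36 of 37 above the median length. The 267 annotated genes whose pellets did not overlap on the higher side, with a mean count of 50 or more, had a median GC content of 55.4% and a median length of 1776 bases. The 702 genes chosen in the same way on the lower side were at 43.6% and 5122 bases. The contrast can be read from 90 bases starting at the middle codon of the coding sequence of the 3 genes with the smallest p in each direction (on the higher side without ribosomal protein genes). Capitals mark G and C.
Eea1 (lower, coding bases 2119 to 2208): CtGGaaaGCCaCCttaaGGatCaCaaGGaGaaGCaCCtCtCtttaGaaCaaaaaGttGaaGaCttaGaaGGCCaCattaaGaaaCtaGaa
Ankrd12 (lower, coding bases 3064 to 3153): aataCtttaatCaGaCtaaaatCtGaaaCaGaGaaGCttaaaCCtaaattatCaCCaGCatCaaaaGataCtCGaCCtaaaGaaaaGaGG
Rb1cc1 (lower, coding bases 2383 to 2472): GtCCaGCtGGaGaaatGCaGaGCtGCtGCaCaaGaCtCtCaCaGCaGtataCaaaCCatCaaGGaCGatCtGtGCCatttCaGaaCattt
Ino80b (higher, coding bases 565 to 654): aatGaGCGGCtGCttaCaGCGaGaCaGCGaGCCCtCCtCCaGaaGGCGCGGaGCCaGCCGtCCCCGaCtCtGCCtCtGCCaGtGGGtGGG
Ndufa13 (higher, coding bases 217 to 306): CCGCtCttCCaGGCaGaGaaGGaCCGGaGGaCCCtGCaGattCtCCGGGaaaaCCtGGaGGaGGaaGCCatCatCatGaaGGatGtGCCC
Blvrb (higher, coding bases 373 to 462): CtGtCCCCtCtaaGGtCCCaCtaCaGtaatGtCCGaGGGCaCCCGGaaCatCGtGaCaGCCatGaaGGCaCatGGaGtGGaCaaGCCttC

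In these windows G and C make up 36, 29 and 42 of 90 bases in Eea1, Ankrd12 and Rb1cc1, and 61, 53 and 51 in Ino80b, Ndufa13 and Blvrb.

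The genes that fell are described by known function. The groups were formed after the values were seen and only order the description, since the share of all genes with each role was not counted. Proteins of microtubules, actin and centrosomes make up 10 of the 37. Kif5b encodes the heavy chain of conventional kinesin, which carries cargo along microtubules. Its log2 ratio was 0.98, 1.67, 1.01 and 1.44 in ASPshSCR replicates 1 to 4 and −0.07, 0.19, −0.60 and −0.41 in ASPshDHPS replicates 1 to 4. All scramble pellets lay above all knockdown pellets, an order that the rule for the named genes required. The difference was −1.50 ± 0.28 (SE, adjusted p = 0.0376, edgeR).

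Ankrd26, a protein of the centriole's distal appendages, showed the same order, with 1.81, 1.17, 1.27 and 1.83 in ASPshSCR and −0.18, −0.05, −0.43 and −0.09 in ASPshDHPS (difference −1.74 ± 0.33, adjusted p = 0.0376). It rests on a mean of 103 counts per library. Nin, which encodes ninein, an anchor of microtubules at the centrosome, was at 0.25, 0.76, −0.22 and 0.45 against −1.06, −0.73, −1.20 and −0.90, and the difference was −1.29 ± 0.25 (adjusted p = 0.0376). Cep170, another centrosomal protein, was lower by a similar amount (−1.17 ± 0.24, adjusted p = 0.0443). Others of this group are Lrrcc1 (−1.33), Camsap2, which caps microtubule minus ends (−1.21), the cytoskeletal linker Dst (−1.11) and Apc (−1.28).

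Membrane traffic and autophagy is represented by 6 of the 37. Eea1, the tether that docks early endosomes before they fuse, had the smallest p of all genes. Its log2 ratio was 0.48, 0.68, 0.46 and 0.76 in the scramble pellets and −1.08, −0.57, −1.02 and −0.92 in the knockdown pellets. The ratio thus lay above that of the median mRNA in every scramble pellet and below it in every knockdown pellet (difference −1.50 ± 0.26, adjusted p = 0.0376), and the difference was −1.50 without ASPshSCR replicate 1. Eea1 lies at chr10:95940650-96045518 in GRCm38.

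Pik3c2a, a class II phosphoinositide 3-kinase of the endocytic route, was at 1.00, 1.51, 0.48 and 0.98 against −0.52, −0.12, −1.25 and −0.12 (difference −1.49 ± 0.28, adjusted p = 0.0376). Tmf1, a Golgi coiled-coil protein, had a negative ratio in both lines, at −0.76, −1.02, −1.26 and −0.90 against −2.76, −2.14, −1.98 and −2.69 (difference −1.41 ± 0.28, adjusted p = 0.0413). The ratio was thus below that of the median mRNA in both lines, and lower in the knockdown. Rb1cc1, which encodes FIP200 of the complex that initiates autophagy, fell by 1.23 (adjusted p = 0.0376). Itsn2, an endocytic scaffold, and Chml, which escorts Rab proteins to their lipid modification, complete the group (−1.15 and −1.32).

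Chromatin and chromosome proteins and zinc finger factors make up 9 of the 37. Atrx, a chromatin remodeller, was at 0.99, 0.71, 0.52 and 0.73 in ASPshSCR and −0.70, −0.52, −0.84 and −0.12 in ASPshDHPS (difference −1.29 ± 0.24, adjusted p = 0.0376). Nipbl, which loads cohesin onto chromosomes, Pbrm1, a subunit of a SWI/SNF complex, and Phf20l1, a reader of methylated lysine, had differences of −1.23, −1.22 and −1.28. Smc6, of the SMC5/6 complex in DNA repair, was at −1.23, and the histone deubiquitinase Mysm1 at −1.28.

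The zinc finger genes Zfp984 and Zbtb41 and the zinc finger and homeobox gene Zhx1 also passed. Zfp984 was at 0.12, 0.27, −0.33 and −1.05 against −2.46, −1.33, −1.43 and −1.94, with the widest spread among the scramble pellets of the named genes in this group. Its closest pellets were ASPshSCR replicate 4 and ASPshDHPS replicate 2. The differences were −1.55 ± 0.33 for Zfp984, −1.36 ± 0.29 for Zbtb41 and −1.42 ± 0.30 for Zhx1 (adjusted p = 0.0443, 0.0443 and 0.0443). Members of the large Zfp family resemble each other in sequence, and how reads were split between near copies was not analysed here.

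Of RNA processing and export, 4 genes fell. Rbm41, an RNA-binding protein, had the fewest reads of the named genes that passed (mean 63.4 counts) and a difference of −1.65 ± 0.36. Thoc2 of the mRNA export complex TREX was at −1.35, and the splicing-associated Pnn and Ppig were at −1.25 and −1.25. Outside these groups, the ankyrin repeat gene Ankrd12 was at 0.74, −0.35, 0.23 and 0.98 against −1.35, −1.07, −1.27 and −1.17 (difference −1.64 ± 0.30, adjusted p = 0.0376).

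Ifit2, an interferon-induced antiviral protein that itself binds RNA, was at 0.56, 1.06, 0.53 and 0.65 against −1.65, −0.18, −1.06 and −0.28 (difference −1.49 ± 0.32, adjusted p = 0.0443). The knockdown pellets fell into a lower pair, replicates 1 and 3, and a higher pair, replicates 2 and 4. The largest difference of all belonged to ENSMUSG00000094410, a locus without a symbol in the table (Gm38394 in GENCODE M21, chr1:133619940-133661318 in GRCm38, tagged there as overlapping another locus). Its difference was −1.94 ± 0.40, and its reads may be shared with the gene it overlaps, so this value is uncertain.

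**Figure D1:**
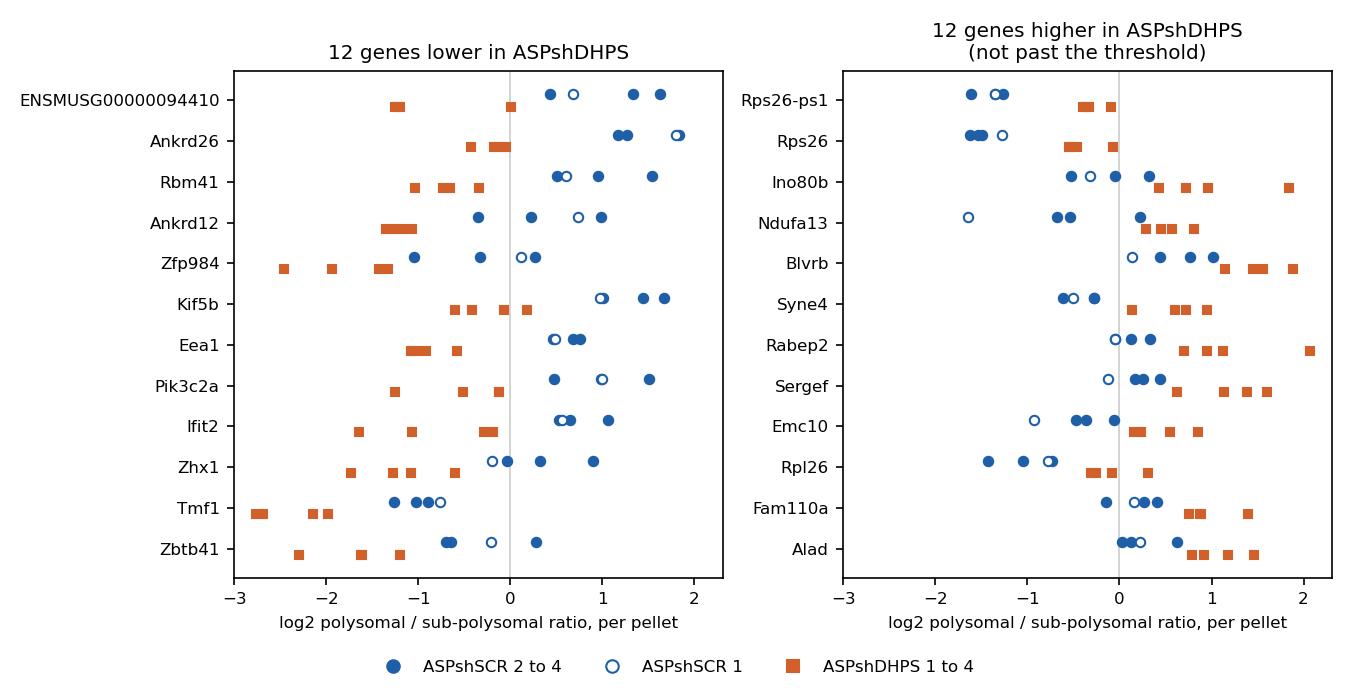
Log2 polysomal to sub-polysomal ratio of each pellet (horizontal axis, normalised counts with a prior count of 2) for the 12 named genes that were lower and the 12 that were higher in ASPshDHPS. Circles are the 4 ASPshSCR pellets (replicate 1 open) and squares the 4 ASPshDHPS pellets. For each gene the groups do not overlap, for which the genes were chosen, and the 12 on the right did not pass the threshold.

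On the higher side no gene passed, and the 12 genes named here are those with the smallest p among genes whose pellets do not overlap and whose mean count is 50 or more. That order was required by the rule. The smallest p belonged to the processed pseudogene Rps26-ps1 and its parent gene Rps26, with the same adjusted p. Rps26, a protein of the small ribosomal subunit, was at −1.28, −1.62, −1.53 and −1.49 in ASPshSCR and −0.54, −0.54, −0.46 and −0.07 in ASPshDHPS. Its ratio was below that of the median mRNA in every pellet of both lines, and the knockdown pellets were the higher ones (difference 1.08 ± 0.25, adjusted p = 0.0540). Without ASPshSCR replicate 1 it was the 1 gene past the threshold on this side (1.18, adjusted p = 0.0478). Rps26-ps1 had almost the same difference (1.11 ± 0.26, adjusted p = 0.0540). The copies can share reads, so the split of counts between them is uncertain.

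Ino80b, a subunit of the INO80 chromatin remodeller, was at −0.32, −0.53, 0.32 and −0.05 against 1.84, 0.72, 0.96 and 0.43 (difference 1.14 ± 0.28, adjusted p = 0.0649, and 0.00581 by DESeq2). Ndufa13, an accessory subunit of respiratory complex I, was at −1.65, 0.22, −0.68 and −0.54 against 0.57, 0.45, 0.81 and 0.29. Its difference of 1.19 ± 0.30 (adjusted p = 0.0750, and 0.00331 by DESeq2) included ASPshSCR replicate 1, the lowest pellet, and was 0.90 without it.

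Blvrb, which reduces biliverdin, was at 0.14, 0.44, 1.02 and 0.77 against 1.89, 1.45, 1.56 and 1.15 (difference 0.92 ± 0.24), and Alad, an early enzyme of haem synthesis, at 0.22, 0.03, 0.62 and 0.13 against 1.46, 0.92, 1.18 and 0.79 (difference 0.84 ± 0.23). Neither passed (adjusted p = 0.0788 and 0.0970). The remaining genes were Syne4, which links the nuclear envelope to kinesin (1.03 ± 0.27), Rabep2, a Rab5 effector on endosomes (1.12 ± 0.30), Sergef (1.02 ± 0.28), Emc10 of the endoplasmic reticulum membrane insertion complex (0.90 ± 0.25), the ribosomal protein gene Rpl26 (0.91 ± 0.25) and Fam110a (0.80 ± 0.22). By DESeq2 all 12 had an adjusted p under 0.05.

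The fractions contributed unequally to the 37 genes that fell. Their polysomal level was lower in all 37, by a median log2 difference of −1.03, and 10 passed the test on polysomal levels alone, in which 28 genes were lower (0.158%) and 2 higher (0.0113%). Their sub-polysomal level was higher in 33 of 37, with a median of 0.33, and 2 passed there, where 173 genes were lower (0.974%) and 78 higher (0.439%). Nin fell in the polysomal fraction alone by this threshold. For it the polysomal difference was −1.25 ± 0.22 (adjusted p = 0.0333) and the sub-polysomal difference 0.06 ± 0.18 (adjusted p = 0.906). Ifit2 passed in the other fraction, with a sub-polysomal difference of 0.92 ± 0.24 (adjusted p = 0.0469) and a polysomal one of −0.49 ± 0.35 (adjusted p = 0.506). Eea1 was at −0.91 ± 0.25 in the polysomal and 0.62 ± 0.20 in the sub-polysomal fraction and passed in neither (adjusted p = 0.113 and 0.104). On the higher side, Syne4 differed by −1.05 ± 0.21 in the sub-polysomal fraction (adjusted p = 0.00710) and by −0.07 ± 0.23 in the polysomal one.

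**Figure D2:**
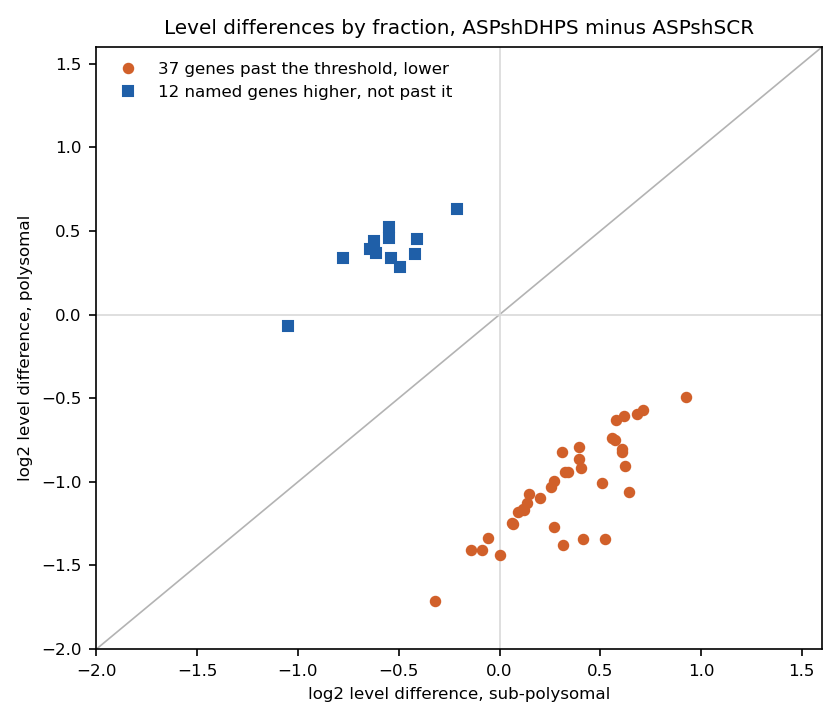
Log2 difference in level between ASPshDHPS and ASPshSCR in the sub-polysomal (horizontal) and the polysomal fraction (vertical) for the 37 genes past the threshold in the ratio (circles) and the 12 named genes on the higher side (squares). The line marks equal change in both. All circles lie below 0 on the vertical axis, and 33 of 37 lie above 0 on the horizontal one.

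Against the other conditions, the log2 differences of the 37 genes ran from −1.33 to −0.61 against ASPshGRIN2D and from −1.63 to −0.76 against NoASPshSCR, and none passed the threshold there (smallest adjusted p = 0.0906 and 0.0827, edgeR). Over all genes, 1 was lower against ASPshGRIN2D (0.00563%) and 0 against NoASPshSCR, with 923 (5.2%) and 995 (5.6%) lower at an unadjusted p under 0.05. The gene was Zfp946 (−1.89, adjusted p = 0.0274), which against ASPshSCR stood at −1.33 ± 0.30 (adjusted p = 0.0534). These contrasts share the 4 ASPshDHPS pellets with the one described here and are no separate test of those pellets.

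The relation to base composition held across the transcriptome. Over 13348 genes, the log2 difference had a Spearman correlation of 0.49 with transcript GC content and of −0.26 with transcript length, and over the 10370 of them with a mean count of 50 or more 0.64 and −0.34. These are descriptions across genes that share the same libraries, so no p is given. Without ASPshSCR replicate 1 the correlation with GC content over the 10370 genes was 0.73. The genes were cut into 10 equal bins by GC content. In the bin with the lowest GC content (31.9% to 42.1%) the median difference was −0.61, 85.4% of the genes were negative, and 23 of the 37 genes that fell were there. In the bin with the highest (58.5% to 72.8%) the median was 0.36, 24.6% were negative, and none of the 37 was there. Pellets did not overlap, with ASPshDHPS lower, for 21.3% of the genes of the lowest bin and 0.300% of the highest, and with ASPshDHPS higher for 0.225% and 4.27%.

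Both fractions moved with base composition, in opposite directions. In the lowest bin the median level difference was −0.40 in the polysomal and 0.19 in the sub-polysomal libraries, and in the highest bin 0.08 and −0.21. In each scramble pellet, AT-rich mRNAs had the higher ratio. The median of the lowest bin exceeded that of the highest by 0.45, 1.26, 0.75 and 0.88 in ASPshSCR replicates 1 to 4. In ASPshDHPS replicates 1 to 4 this gap was −0.47, 0.18, −0.33 and 0.51. The groups overlap by 1 pellet each, ASPshSCR replicate 1 and ASPshDHPS replicate 4, and without ASPshSCR replicate 1 they do not. The means were 0.84 ± 0.34 (SD, n = 4) and −0.03 ± 0.45. In the conditions outside the comparison the gap was 0.37 to 1.11 in ASPshGRIN2D (mean 0.63 ± 0.34) and 0.56 to 0.85 in NoASPshSCR (mean 0.69 ± 0.15), so the knockdown pellets reach below those of each other condition. No test is given because this measure was chosen after its values were seen. Whether library preparation or the cells set the trend was not tested.

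**Figure D3:**
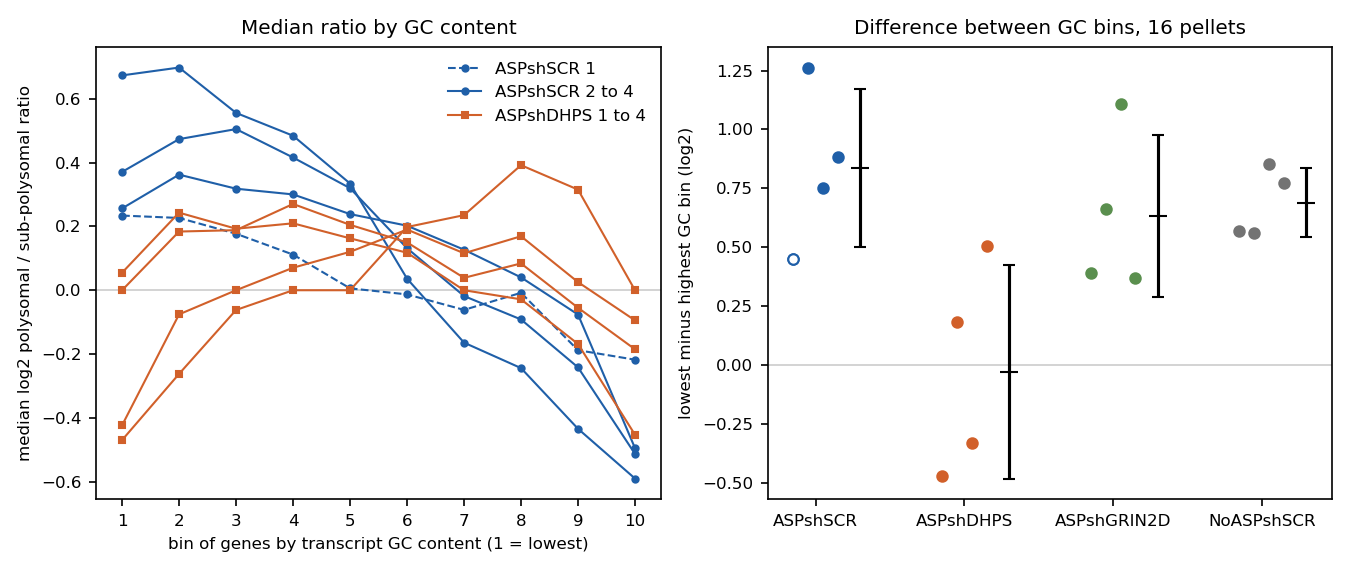
Left, median log2 polysomal to sub-polysomal ratio (vertical) in 10 bins of genes ordered by transcript GC content (horizontal), 1 line per pellet, with ASPshSCR replicate 1 dashed. Right, the lowest minus the highest bin in each of the 16 pellets of the series, with mean and SD (n = 4). Each line of ASPshSCR ends lower on the right than it starts on the left, and the ASPshDHPS points lie between −0.47 and 0.51.

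Longer transcripts had lower differences among AT-rich genes. With genes in 3 equal classes of GC content, in the lowest class (up to 47.6%), the median difference was −0.11 for short transcripts (up to 2173 bases), −0.35 for middle ones and −0.58 for long ones (from 3778 bases). In the middle class they were 0.16, 0.03 and −0.09, and in the highest class (from 53.9%) 0.36, 0.32 and 0.36. Of the 37 genes, 32 lay among the 1977 genes that were both long and AT-rich, where the pellets did not overlap, with ASPshDHPS lower, for 23.4%. When a smooth trend on GC content and length was removed from each library, a fit added after the data were seen, no gene passed (0 lower and 0 higher), and the median of the 37 genes was −0.72.

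Genes were also compared by proline runs, the motif for which eIF5A is best known. Of the 13348 coding sequences, 3261 (24.4%) encode a run of at least 3 prolines, and 14 of the 37 genes that fell do (37.8%). Genes with such a run had a median difference of 0.03 and genes without one −0.02. Coding sequences with a run are longer (median 2043 against 1224 bases). Within the class of lowest GC content, genes with a run were at −0.54 and genes without at −0.38. Within the class of highest GC content they were at 0.36 and 0.34.

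Of 16 hypusine and polyamine genes none passed the threshold (background 0.208% lower and 0% higher), and their median difference was 0.17, or 0.16 without ASPshSCR replicate 1, beside −0.01 and 0.03 over all genes. Dohh was at −0.74, 0.36, −0.07 and 0.18 against 0.68, 0.19, 0.47 and 0.47 (difference 0.52 ± 0.25, adjusted p = 0.373, and 0.33 without ASPshSCR replicate 1), and Eif5a at −0.38, 0.62, −0.26 and −0.64 against −0.10, 0.24, 0.41 and −0.39 (difference 0.21 ± 0.33, adjusted p = 0.828). In both, the groups overlap. Eif5a2, the less abundant paralog, was at −0.98, −0.90, −1.57 and −1.58 against −3.35, −1.04, −3.41 and −1.30, with ASPshDHPS replicates 1 and 3 far below replicates 2 and 4 (difference −0.94 ± 0.46, adjusted p = 0.367). Amd1, the decarboxylase that supplies aminopropyl groups for polyamines and has near-identical copies, was at −0.95 ± 0.35 (adjusted p = 0.223).

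Odc1, the first enzyme of polyamine synthesis, had very different values with and without ASPshSCR replicate 1. Its log2 ratio was 2.18, −2.47, −2.11 and −1.47 in ASPshSCR and −1.79, −1.77, −1.42 and −1.75 in ASPshDHPS. The difference was −0.49 ± 0.61 with this pellet and 0.38 without it, and neither passed (adjusted p = 0.776 and 0.640). Fth1, the ferritin heavy chain, was at 3.25, −3.68, −2.68 and −2.11 against −2.31, −2.19, −2.02 and −1.90, and its difference went from −0.27 to 0.75. Rplp0, of the ribosomal stalk, went from −0.45 to 0.39 and Rpsa from −0.01 to 0.66. For the list of 11 ferritin and iron genes the median turned from −0.23 to 0.33, and for 22 nuclear noncoding RNAs and snoRNA host genes from −0.32 to 0.29.

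Of 87 cytosolic ribosomal protein genes none passed the threshold, 36 were higher and 0 lower at an unadjusted p under 0.05 (beside 4.93% and 8.68% of all genes), and 24 were higher by DESeq2 (beside 2.1%). Their median difference was 0.54, and 0.63 without ASPshSCR replicate 1. The pellets did not overlap, with ASPshDHPS higher, for 23 of 87 (26.4%), beside 2.16% of all genes, and with ASPshDHPS lower for 0, beside 4.7%. The median log2 ratio of the 87 mRNAs was −0.92, −1.45, −1.27 and −0.95 in ASPshSCR replicates 1 to 4 and −0.96, −0.76, −0.58 and −0.25 in ASPshDHPS. They lay below the median mRNA in every pellet, and the groups overlap through ASPshDHPS replicate 1. Rpl18 was at −0.95, −1.30, −0.81 and −0.61 against −0.09, −0.43, 0.06 and −0.10 (difference 0.78 ± 0.25, adjusted p = 0.160). Many ribosomal protein genes have processed pseudogenes that can share their reads.

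Of the 60 genes matched as initiation factors, a list that also takes in eIF2 kinases and eIF4E-binding proteins, none passed, and the median was 0.21. At an unadjusted p under 0.05, 7 were lower and 7 higher (beside 8.68% and 4.93% of all genes). Pellets did not overlap for 2 on the lower and 4 on the higher side (beside 4.7% and 2.16%), and for 5 and 5 without ASPshSCR replicate 1 (beside 8.1% and 4.15%). Of the members with the smallest p, the eIF2B subunit Eif2b2 was at 0.78 ± 0.24 (adjusted p = 0.134) and Eif3g of the eIF3 complex was at 0.72 ± 0.24 (adjusted p = 0.171). Of 14 elongation and termination factors none passed, 2 were lower and 2 higher at an unadjusted p under 0.05 (beside the same 8.68% and 4.93%), and the median was 0.29. The most abundant, Eef1a1, was at 0.17 ± 0.43 (0.39 without ASPshSCR replicate 1), and Abce1, which recycles ribosomes after termination, was at −0.72 ± 0.26 (adjusted p = 0.214). Aminoacyl-tRNA synthetases (20 genes) had a median of 0.12 (0.08 without ASPshSCR replicate 1) with none past the threshold.

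The list medians of mitochondrial genes differed in sign by where the genes are encoded, but no member passed the threshold. Of 80 nuclear genes for respiratory chain subunits none passed, 77 were positive, and the median was 0.42, which dropped to 0.19 without ASPshSCR replicate 1. Pellets did not overlap on the higher side for 8 (10.0%, beside 2.16% of all genes). The median ratio of these mRNAs was −1.17, 0.46, −0.21 and −0.43 in ASPshSCR and −0.19, 0.40, 0.30 and 0.08 in ASPshDHPS. ASPshSCR replicate 1 was lowest, and the groups overlap. Atp5b, the catalytic beta subunit of ATP synthase and the most abundant of them, had a difference of 0.57 ± 0.28 (adjusted p = 0.367). Its pellets do not overlap, and ASPshDHPS replicate 1, at 2.27, is the highest. The 78 mitochondrial ribosomal protein genes had a median of 0.31 (0.20 without ASPshSCR replicate 1), with Mrps34 at 0.81 ± 0.30. Of the 78, 1 was without overlap on the higher side (1.28%, beside 2.16% of all genes).

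The 13 mitochondrially encoded mRNAs all had a negative difference, with a median of −1.24, or −0.62 without ASPshSCR replicate 1. The median ratio of these mRNAs was −0.45, −3.40, −3.52 and −2.92 in ASPshSCR and −4.52, −3.80, −3.72 and −3.15 in ASPshDHPS. The groups overlap through ASPshDHPS replicate 4. None of these mRNAs passed the threshold, and pellets did not overlap on the lower side for 2 of 13 (15.4%, beside 4.7% of all genes). Mitochondrial ribosomes translate them inside the organelle, so their place in the gradient is no measure of cytosolic translation. mt-Nd5, a complex I subunit, was at −0.70, −2.55, −2.79 and −2.35 against −4.55, −3.56, −3.46 and −3.19 (difference −1.57 ± 0.40, adjusted p = 0.0750). The groups do not overlap, and ASPshSCR replicate 1 lies far above the other 7 pellets. The most abundant, mt-Co1 of cytochrome c oxidase, was at −1.24 ± 0.49 (adjusted p = 0.251) and at −0.62 without that pellet.

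On the lower side, several lists of regulatory and structural genes shared the sign of the 37. Of 371 Zfp genes 1 passed (Zfp984, a share close to the 0.208% of all genes), the median was −0.41 (−0.40 without ASPshSCR replicate 1), and pellets did not overlap, with ASPshDHPS lower, for 52 (14.0%, beside 4.7% of all genes). The median ratio of the family was 0.12, 0.22, 0.10 and 0.16 in ASPshSCR and −0.40, −0.14, −0.47 and −0.08 in ASPshDHPS, so the groups of pellets do not overlap. Zfp948 was at 0.87, 1.44, 0.72 and 0.39 against −0.86, 0.22, −0.68 and −0.29 and, at −1.25 ± 0.28, just missed the threshold (adjusted p = 0.0534).

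Of 78 centrosome and cilium genes 3 passed (Ankrd26, Nin and Cep170, beside 0.208% of all genes), the median was −0.35, and pellets did not overlap on the lower side for 17 (21.8%, beside 4.7%). The median ratio of the list was 0.16, 0.52, 0.46 and 0.71 in ASPshSCR and −0.10, 0.07, −0.18 and 0.24 in ASPshDHPS, where ASPshSCR replicate 1 and ASPshDHPS replicate 4 overlap. Among 41 kinesins and dyneins 1 passed (Kif5b, beside 0.208%), with a median of −0.22 (−0.03 with the trend on GC content and length removed). The list was not uniform, as Dync2h1, the motor of retrograde transport in cilia, was at −1.23 ± 0.35 (adjusted p = 0.105) and Dync2i2, a subunit of the same motor, at 0.83 ± 0.23 (adjusted p = 0.0995). The Dync2h1 transcript has a GC content of 43.5% and that of Dync2i2 58.5%.

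DNA repair and checkpoint kinases and helicases (30 genes) had a median of −0.50, and 1 passed (Smc6, beside 0.208% of all genes). Rif1, which shapes replication timing and repair, was at 1.02, 0.96, 0.50 and 0.76 against −0.33, 0.20, −0.35 and 0.15 (difference −0.90 ± 0.25, adjusted p = 0.0927), and Rad50 of the MRN complex at −0.95 ± 0.28 (adjusted p = 0.118). Of 94 chromatin modifiers 1 passed (Atrx, beside the same 0.208%), with a median of −0.29 and 21 without overlap on the lower side (22.3%, beside 4.7%). The remodeller Chd1 was at 0.61, 0.52, 0.37 and 0.92 against −0.41, −0.44, −0.57 and −0.06 (difference −0.98 ± 0.23, adjusted p = 0.0540), and the histone demethylase Kdm6a at −1.04 ± 0.26.

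Of 87 ubiquitin ligases and deubiquitinases none passed, the median was −0.38, and 16 were without overlap on the lower side (18.4%, beside 4.7% of all genes) and 0 on the higher (beside 2.16%). The ligase Itch was at 0.61, 1.13, 0.60 and 0.99 against −0.42, −0.02, −0.47 and 0.00 (difference −1.06 ± 0.25, adjusted p = 0.0540), the cullin Cul5 at −0.91 ± 0.23 and the deubiquitinase Usp47 at −0.77 ± 0.22. For proteasome subunits, the other end of the same pathway, the median was positive, at 0.31, or 0.12 without ASPshSCR replicate 1. None of 37 passed, 35 were positive (beside 8733 of 17757 genes), and 3 were without overlap on the higher side (8.11%, beside 2.16%). The median ratio of the list was 0.75, 1.49, 1.56 and 1.51 in ASPshSCR and 1.66, 1.61, 1.31 and 1.72 in ASPshDHPS. The groups overlap through ASPshDHPS replicate 3, which lies below ASPshSCR replicates 2 to 4. Psmd13 was at 0.85, 1.53, 1.64 and 1.57 against 2.42, 1.89, 2.04 and 1.97 (difference 0.68 ± 0.23, adjusted p = 0.179).

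Among Hallmark sets of cell division genes, the mitotic spindle set (198 genes) had 5 genes past the threshold (beside 0.208% of all genes) and a median of −0.15. The G2M checkpoint set (198 genes) had 2 and a median of −0.11, and the E2F targets (199 genes) had 2 and a median of −0.01 (−0.08 without ASPshSCR replicate 1). With the trend on GC content and length removed, the medians were 0.004 (mitotic spindle), 0.01 (G2M checkpoint) and 0.08 (E2F targets). Stag1, a cohesin subunit, was at −1.09 ± 0.25 (adjusted p = 0.0540). The oxidative phosphorylation set (199 genes) had none and a median of 0.26 (0.15 without ASPshSCR replicate 1).

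For the matrix, 20 collagen folding and crosslinking enzymes had a median difference of 0.58 (0.59 without ASPshSCR replicate 1), and none passed. The median ratio of the list was −0.04, 0.00, 0.63 and 0.38 in ASPshSCR and 0.95, 0.71, 0.67 and 0.59 in ASPshDHPS, which overlap through ASPshSCR replicate 3. Serpinh1, the collagen chaperone, was at 0.40, 0.01, 0.91 and 0.38 against 1.84, 0.87, 1.36 and 0.80 (difference 0.79 ± 0.29, adjusted p = 0.210), and Crtap, of the collagen prolyl 3-hydroxylation complex, at 0.57 ± 0.23. The 26 collagen chains had a median of 0.25, with Col18a1 the most abundant (0.50 ± 0.39, adjusted p = 0.592). Only 11 of the 26 had a mean count of 50 or more.

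Among 31 TGF-beta ligands, receptors and SMAD genes none passed, 7 were lower and 2 higher at an unadjusted p under 0.05 (beside 8.68% and 4.93% of all genes), and the median was −0.16 (−0.08 without ASPshSCR replicate 1). Of the 51 genes of the Hallmark TGF-beta signalling set 1 passed (Apc, beside 0.208%). In that set 14 were lower and 1 higher at an unadjusted p under 0.05, and 6 were lower and 0 higher by DESeq2 (beside 4.01% and 2.1%). Pellets did not overlap on the lower side for 7 of the 51 (13.7%, beside 4.7%) and, without ASPshSCR replicate 1, for 10 (beside 8.1%). The median of the set was −0.17, and 0.01 without that pellet. Skil, a repressor of SMAD proteins, was at 0.65, 0.57, 0.38 and 0.71 against −0.62, −0.10, −0.93 and −0.07 (difference −1.0 with an SE of 0.24, adjusted p = 0.0568), and the activin receptor Acvr2a at −1.03 ± 0.28 (adjusted p = 0.0903). The epithelial mesenchymal transition set (148 genes) had 1 gene past the threshold (beside 0.208% of all genes) and a median of 0.10. Of 22 endoplasmic reticulum chaperones none passed, with a median of 0.17 (0.10 without ASPshSCR replicate 1).

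Among 14 mRNAs translated through upstream reading frames under stress none passed, with a median of 0.12 (0.29 without ASPshSCR replicate 1). Atf4, their best known member, was at −0.75, −1.13, −1.58 and −1.21 against −1.48, −1.31, −1.05 and −1.09 (difference −0.06 ± 0.26, adjusted p = 0.959), with overlapping pellets, and the difference was 0.11 without that pellet. Cebpb, another transcription factor of this list, was at −0.83, −0.92, −0.95 and −1.22 against −0.57, −0.40, 0.14 and −0.55 (difference 0.64 ± 0.24, adjusted p = 0.223). Its pellets do not overlap. The epithelial keratins Krt8 and Krt18 were at 0.72 ± 0.45 and 0.72 ± 0.44 and did not pass, with ASPshSCR replicate 2 far below the other scramble pellets in both.

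**Figure D4:**
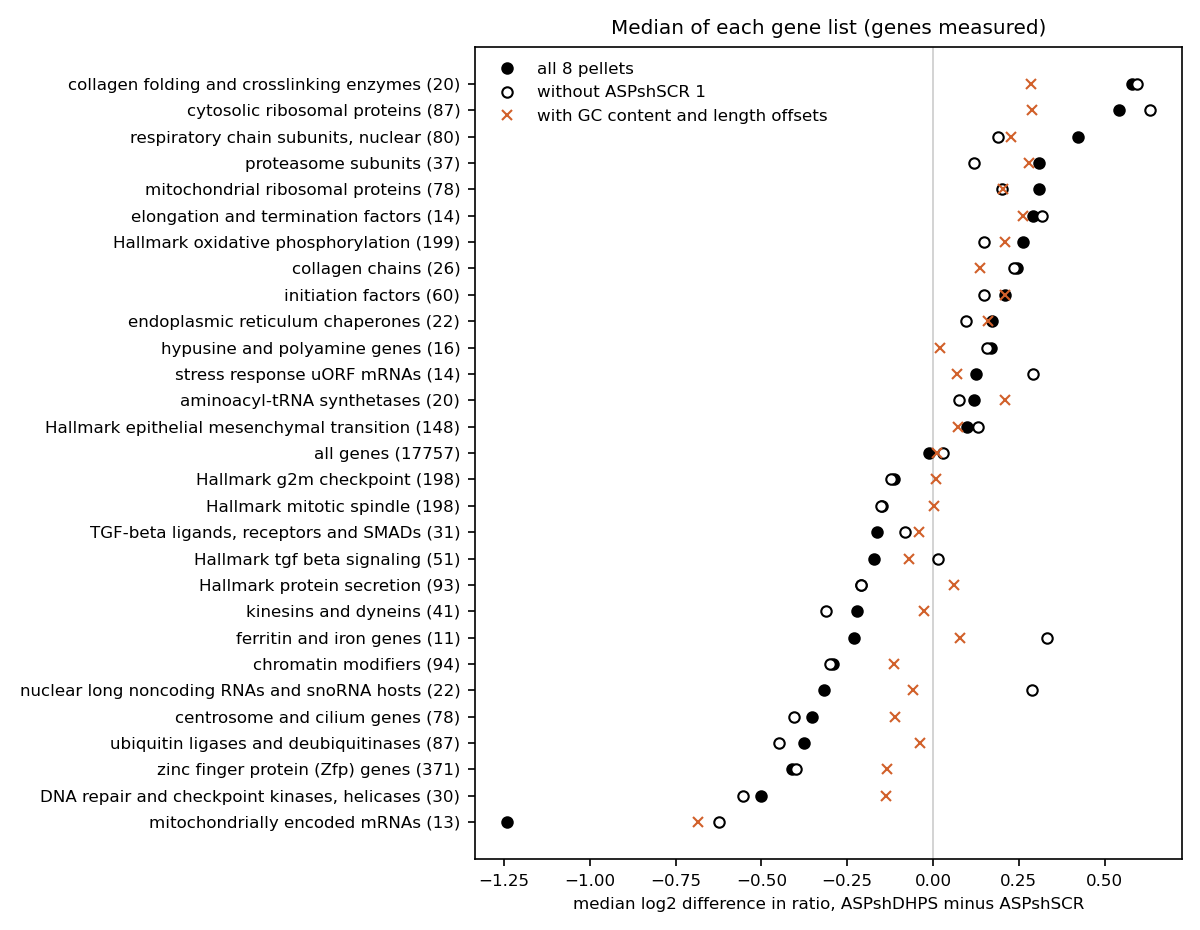
Median log2 difference in ratio between ASPshDHPS and ASPshSCR (horizontal) for 28 gene lists and all genes, with the number of genes measured in brackets. Filled circles use all 8 pellets, open circles leave out ASPshSCR replicate 1, and crosses come from the fit with offsets for GC content and length. Cytosolic ribosomal proteins (0.54) and Zfp genes (−0.41) lie on opposite sides under each of them.

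The lists also differ in the base composition of their genes. The lists on the lower side had median transcript GC contents of 44.4% (Zfp), 45.1% (DNA repair), 45.9% (centrosome and cilium) and 47.3% (ubiquitin ligases), and those on the higher side of 51.6% (cytosolic ribosomal proteins), 51.7% (respiratory chain) and 56.2% (collagen folding enzymes). Not every list fits this order. Chromatin modifiers, on the lower side, were at 50.7%, and on the higher side mitochondrial ribosomal proteins were at 49.9%, proteasome subunits at 49.7%, initiation factors at 49.4% and elongation and termination factors at 48.4%, all below the 50.2% of all matched genes. With the trend on GC content and length removed, the medians moved to −0.14, −0.14, −0.11 and −0.04 on the lower side and to 0.29, 0.23 and 0.29 on the higher side, with chromatin modifiers at −0.11, beside 0.01 over all genes. Mitochondrial ribosomal proteins were then at 0.20, proteasome subunits at 0.28, initiation factors at 0.21 and elongation and termination factors at 0.26.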

How the data were processed

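Strand-specific mRNA libraries were made from the polysomal and the sub-polysomal fraction of each pellet. The authors deposited gene counts, made by Salmon 1.4.0 and rounded to whole numbers, with genes without expression left out. The submitters' processing notes also name Trim Galore 0.6.6, FastQC 0.11.9, STAR 2.6.1, DESeq2 1.34.0 and the mouse build GRCm39. Library totals were 16391556 to 25639437 counts in the 16 libraries compared and 12870563 to 22075701 in the other 16.

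The counts of all 32 libraries were fitted in edgeR 4.0.16 (R 4.3.3; quasi-likelihood F test, TMM normalization) with 1 coefficient per pellet and 1 polysomal to sub-polysomal ratio per condition. The contrast was ASPshDHPS minus ASPshSCR, two-sided, with Benjamini-Hochberg adjustment over 17757 genes and a threshold of 0.05. The design followed the study's model with edgeR in place of DESeq2. Levels were tested within each fraction. A prior count of 2 went into the log2 ratio of each pellet. DESeq2 1.42.0, limma 3.58.1, other normalizations and filters, and each pellet left out were alternatives. Offsets for GC content and length (mgcv 1.9.3) were added after seeing the data. Errors are standard errors unless named SD.

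Named genes were, per direction, up to 12 past the threshold with the largest difference, non-overlapping pellets and a mean count of 50 or more (with none past it, those with the smallest p), Dhps, Dohh, Eif5a, Eif5a2 and Odc1, and in each list up to 3 with the smallest p and the most abundant. Other genes past the threshold were named after their values were seen, and some are not reported here. Members and lists were chosen with earlier results of these data known. Transcript features came from GENCODE M21 (GRCm38), which matched 17305 of 17757 identifiers. Proline runs were read as runs of at least 3 CCN codons. The fit was tested on simulated data. With each gene's own estimated dispersion, false calls made up more of the calls than the 0.05 threshold allows, and with the trended dispersion they did not, so adjusted p-values just under the threshold may be too small. No pair of replicates agreed within sampling noise.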

Additional observations from a re-analysis of the deposited data

Results flagged for a closer look

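In 14 of 236 groups of 4 values, 1 library or pellet lay apart from the other 3 by Dixon's criterion, which by chance marks about 1 in 20 groups. Of these, 8 were in ASPshSCR and 4 of them at its replicate 1.

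At ASPshSCR replicate 1, Fth1 and Ftl1 took 7.50% of the polysomal counts (nearest 0.249%) and mitochondrially encoded transcripts 4.72% (nearest 1.00%). The proteasome list had a median log2 ratio of 0.75 there (nearest 1.49), and Psmd13 was at 0.85 (nearest 1.53). At ASPshSCR replicate 2, Fth1 and Ftl1 took 2.27% of the sub-polysomal counts (nearest 1.08%), Krt18 had a log2 ratio of −1.28 (nearest 0.64), Krt8 of −0.91 (nearest 0.76), and the hypusine and polyamine list a median of −0.39 (nearest −0.70).

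In ASPshDHPS, replicate 1 stood apart for Atp5b, with a log2 ratio of 2.27 (nearest 1.44), and for the endoplasmic reticulum chaperone list, with a median of 1.17 (nearest 0.68). Replicate 2 stood apart for ENSMUSG00000094410 at 0.0107 (nearest −1.19) and Rpsa at −2.33 (nearest −1.55). Replicate 3 stood apart for Odc1 at −1.42 (nearest −1.75) and Pnn at −0.94 (nearest −0.37). The causes were not tested.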

How the results depend on the processing

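The count of 37 lower and 0 higher genes in the ratio moved widely. The 37 genes were negative under every alternative run, which their selection fixes, since they were chosen as lower and their pellets do not overlap. No gene passed with DESeq2 size factors in edgeR (0 lower), with only the 16 libraries of the 2 conditions (0), without a pellet term (0), or with offsets for GC content and length with and without ASPshSCR replicate 1 (0 and 0). Upper-quartile factors gave 12 lower genes, limma-trend 18, limma-voom with quality weights 34 lower and 3 higher, and the robust edgeR fit 54 lower and 1 higher. TMM within each fraction gave 181 lower and 3 higher, filterByExpr 184 and 4, and at least 10 counts in each library 257 and 7. DESeq2 gave 436 lower and 228 higher, 295 and 123 without its filter, and 374 and 190 without ASPshSCR replicate 1. Lower genes made up 65.7% of DESeq2's calls. Leaving out 1 pellet gave 0 to 83 lower and 0 to 1 higher genes. Without ASPshSCR replicates 1 to 4 the lower genes numbered 27, 1, 33 and 0, and without ASPshDHPS replicates 1 to 4 they numbered 0, 83, 0 and 0. The causes were not tested.

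Polysomal levels (28 lower, 2 higher) gave 26 and 1 with DESeq2 size factors, 15 and 3 with filterByExpr, 468 and 86 with DESeq2, and 0 to 289 lower and 0 to 15 higher genes with 1 pellet left out, 119 and 12 of them without ASPshSCR replicate 1. Sub-polysomal levels (173 lower, 78 higher) gave 392 and 260 with DESeq2, and 60 to 232 lower and 20 to 138 higher with 1 pellet left out, 108 and 28 without ASPshSCR replicate 1.

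Same-numbered pellets of the 2 conditions did not deviate together in each pair (r = −0.06, 0.43, −0.23 and 0.17 over 10931 genes). Between differently numbered pellets r reached 0.47 (ASPshSCR replicate 3 with ASPshDHPS replicate 1). On the scale from sub-polysomal to polysomal, the polysomal library of replicate 2 was lowest in ASPshDHPS (0.854), ASPshGRIN2D (0.802) and NoASPshSCR (0.921). In ASPshSCR (0.783) it was the lowest after replicate 1. Whether same-numbered pellets share a batch was not tested. With the replicate number as a block, 216 genes were lower and 15 higher in the ratio, 310 and 95 in polysomal levels, and 404 and 354 in sub-polysomal levels.

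With 4 pellets a condition, the adjusted p-values lay just under the threshold, and which genes pass depends on the settings above.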

Other observations

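Among lists not described above, 19 amino acid transporters had a median log2 difference of 0.40 (0.44 without ASPshSCR replicate 1) and 17 genes of aspartate metabolism and its shuttle 0.34 (0.29), with 15 positive in each and none past the threshold. The median of 57 replication-dependent histone genes, whose mRNAs mostly lack a poly(A) tail, went from 0.32 to −0.03 without ASPshSCR replicate 1. Only 6 of the 57 had a mean count of 50 or more. The Hallmark protein secretion set (93 genes) had 1 gene past the threshold (beside 0.208% of all genes) and a median of −0.21 (−0.21 without ASPshSCR replicate 1), and its median with offsets for GC content and length was 0.06.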
